A study of Mus musculus with 5 samples.

Results

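REST (RE1-silencing transcription factor) and the proteins it works through form 10 genes here: Rest itself, the CoREST scaffold genes Rcor1, Rcor2 and Rcor3, the SIN3 scaffold gene Sin3a, the deacetylase genes Hdac1 and Hdac2, the demethylase gene Kdm1a, and the chromatin reader genes Phf21a and Phf21b. They were taken by name out of 22225 protein-coding genes, with earlier results of these data known. For each one, REST peaks were collected inside the gene body or within 50 kb of its start on the mm9 mouse genome. The question was whether REST occupied its own gene and the genes of its cofactors in the developing pancreas. REST was immunoprecipitated with the mouse monoclonal antibody 12C11 from untreated whole wild-type pancreas of embryos on a mixed background with C57BL/6, and the bound DNA was sequenced. There were 3 libraries at E18.5 (A, B and C) and 2 at E13.5 (A and B), each from chromatin of several pooled pancreases. Whole pancreas mixes epithelial and mesenchymal cells, so a weak peak from many cells and a strong peak from few cells cannot be told apart.

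REST is a zinc finger protein that binds a 21-bp DNA element, RE1, mostly at genes used by neurons and other excitable or secretory cells. Its amino-terminal domain recruits SIN3 with the histone deacetylases HDAC1 and HDAC2. Its carboxy-terminal domain recruits CoREST, which carries the same deacetylases together with LSD1 (encoded by Kdm1a), an enzyme that removes methyl groups from lysine 4 of histone H3. Many genes with RE1 elements are also used by the endocrine cells of the pancreas.

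Of the 10 genes, 2 had a peak in at least 1 library, Rest and Phf21b. Across all protein-coding genes the share with a peak in any library was 9.83%. Because the genes were listed with earlier results known, this share is a description and not a test of the set. The 8 other genes had no peak in any library: Rcor1, Rcor2, Rcor3, Sin3a, Hdac1, Hdac2, Kdm1a and Phf21a. A gene without a peak is one where none was called, and binding below the calling threshold was not measured. Phf21b carried a site called in all 5 libraries, as did 1.03% of all genes, and 1.12% of genes had a peak of any position in all 5. Rest carried a site called in 3 of the 5. Both genes thus had peaks in at least 2 libraries, as did 7.02% of all genes.

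The sequences under these sites are shown first, because the 2 genes differed in how REST's element appeared there. The element was learned from E13.5 peaks outside the windows of the 10 genes, and its most frequent base at each position gave this sequence, with all 21 positions in capitals.
RE1 learned from the E13.5 peaks: TTCAGCACCATGGACAGCGCC
The first 9 bases are called the left arm, positions 12 to 20 the right arm, and the 2 bases between them the spacer. A stretch with 5 or fewer mismatches to this sequence, on either strand, was counted as a match. A match lay in the 500 bp around the peak centre at 71.1% of the 1187 windows used for learning and at 0.253% of windows placed 10 kb downstream.

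The Phf21b site called in every library lay at chr15:84659715-84660328 (mm9), inside intron 2 of the gene on the minus strand, 26538 bp downstream of the gene start. That intron spans 46580 bp between exon 2 and exon 3, and no exon or UTR was annotated under the site. Within it, a stretch of 136 bp at chr15:84659964-84660099, read along the minus strand as the gene is transcribed, held 3 matches, shown in capitals.
Phf21b intron site: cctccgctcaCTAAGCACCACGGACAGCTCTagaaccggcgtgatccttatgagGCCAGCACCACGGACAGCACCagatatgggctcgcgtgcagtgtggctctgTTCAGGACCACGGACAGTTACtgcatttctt
All 3 pointed the same way and were spaced 44 and 51 bp apart, start to start. Below they are given one by one, with bases that differ from the learned element in lower case.
Phf21b match 1, chr15:84660069-84660089, minus strand: cTaAGCACCAcGGACAGCtCt
Phf21b match 2, chr15:84660025-84660045, minus strand: gcCAGCACCAcGGACAGCaCC
Phf21b match 3, chr15:84659974-84659994, minus strand: TTCAGgACCAcGGACAGttaC
Counted from 1 at the 5′ end of the element, all 3 shared the substitution T11C in the spacer. Match 2 was the closest, with 4 mismatches (T1G, T2C, T11C and G19A).

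A second, weaker Phf21b site lay at chr15:84684437-84684544 (mm9), in the same intron, 2069 bp downstream of the gene start. It was called in the E13.5 A library alone. The whole peak of 108 bp is shown along the minus strand, with its match in capitals.
Phf21b site near the start: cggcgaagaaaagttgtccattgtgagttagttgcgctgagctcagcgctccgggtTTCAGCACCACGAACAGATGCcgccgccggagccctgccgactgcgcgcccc
This match had an exact left arm and 5 mismatches (T11C, G13A, C18A, G19T and C20G), 3 of them within the last 4 positions.

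The Rest site lay at chr5:77694792-77695424 (mm9) on the plus strand, 592 bp downstream of the gene start at its centre. No match to the whole element was found there, and the best stretch had 7 mismatches. A stretch with 7 or fewer was present in 69.3% of all site windows and in 6.22% of windows 10 kb downstream. The peak of the E13.5 A library, 123 bp at chr5:77694816-77694938 and entirely within intron 1, is shown because its middle held an exact copy of the right arm on the minus strand. The capitals mark that copy as it reads on the plus strand.
Rest E13.5 A peak: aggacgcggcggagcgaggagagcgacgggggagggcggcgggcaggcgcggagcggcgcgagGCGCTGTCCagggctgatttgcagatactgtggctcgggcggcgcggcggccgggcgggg
On the minus strand the copy reads as follows.
Rest right arm, chr5:77694879-77694887, minus strand: GGACAGCGC
Upstream of it on the same strand, the left arm was sought at each spacer from 0 to 6 bases. With no spacer the 9 bases had 3 mismatches to the left arm, and at the usual spacer of 2 they had 7. The other spacers gave 5 to 8, so the spacer of 0 is the lowest of several tried. Spacers longer than 6 were not searched, so arms set further apart are not covered. How often 3 or fewer would be found in this way elsewhere was not tested. The bases at spacers of 0 and 2 are shown with the mismatches in lower case.
Rest bases at the left arm position, no spacer: aTCAGCcCt
Rest bases at the left arm position, spacer of 2: aaatcagCC

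The libraries were deposited as peak lists, 1 per library, and differed in length. After entries that overlapped in a list were merged, the lists held 541, 417 and 226 peaks at E18.5 and 1400 and 1333 peaks at E13.5. Median peak width was 311, 319 and 394.5 bp at E18.5 and 161 and 483 bp at E13.5. Read totals were not used, so sequencing depth is unknown. The score of each peak is a whole number on a scale that is not given, and scores were therefore compared as ranks within a list, with 100 for the highest. Peaks with equal scores took their mean rank, and a place counted from the top is the first of its tie. Joined across the 5 libraries, the peaks made 1860 sites.

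The first gene of the set, Rest, encodes the repressor itself. In E18.5 B its peak was 633 bp wide with a score of 14, the 38th of 417 peaks, at a rank of 90.9. In E18.5 C it was 582 bp wide with a score of 9, the 146th of 226, at a rank of 26.8. In E13.5 A it was 123 bp wide with a score of 11, the 888th of 1400, at a rank of 33.0. E18.5 A and E13.5 B had no peak at Rest, and their nearest peaks lay 11372180 bp and 6175073 bp from the gene start. So the site was near the top of one list, in the lower part of a pair of lists and missing from the other pair, and each stage had a library without it.

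The combination of libraries at Rest (E18.5 B, E18.5 C and E13.5 A, without the others) was found at this site alone among the 1860, a share of 0.0538%. That combination was read off the site itself. How often each other mixed combination occurs is not given here, so the share does not show that this one is unusual. By the rule of at least 2 of 3 libraries the site was reproducible at E18.5, as were sites of 2.21% of all genes. By the rule of both libraries it was not at E13.5. Without E18.5 B or without E18.5 C, the site was no longer called in 2 libraries of that stage.

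The joined Rest site began in the last bases of the 5′ UTR exon that opens transcripts Rest-001 and Rest-201 (77694516 to 77694813), ran through part of their intron 1, and took in most of the opening exon of Rest-002, a transcript whose annotated start lies further downstream. The peaks of E18.5 B and E18.5 C reached that second start, and the peak of E13.5 A did not. The exact right arm lay inside all 3 peaks. It was 6 bp from the centre of the narrow E13.5 A peak, and 225 and 250 bp from the centres of the wide E18.5 B and E18.5 C peaks. Nearest to those 2 centres, at 13 and 38 bp, was a copy of the left arm with 1 mismatch on the minus strand. This copy was part of the best stretch for the whole element given above, so the 2 are not separate features. It lay outside the E13.5 A peak, and how often copies with 1 mismatch occur in other windows was not counted.
Rest left arm, chr5:77695091-77695099, minus strand: TTCAGgACC

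**Figure D1:**
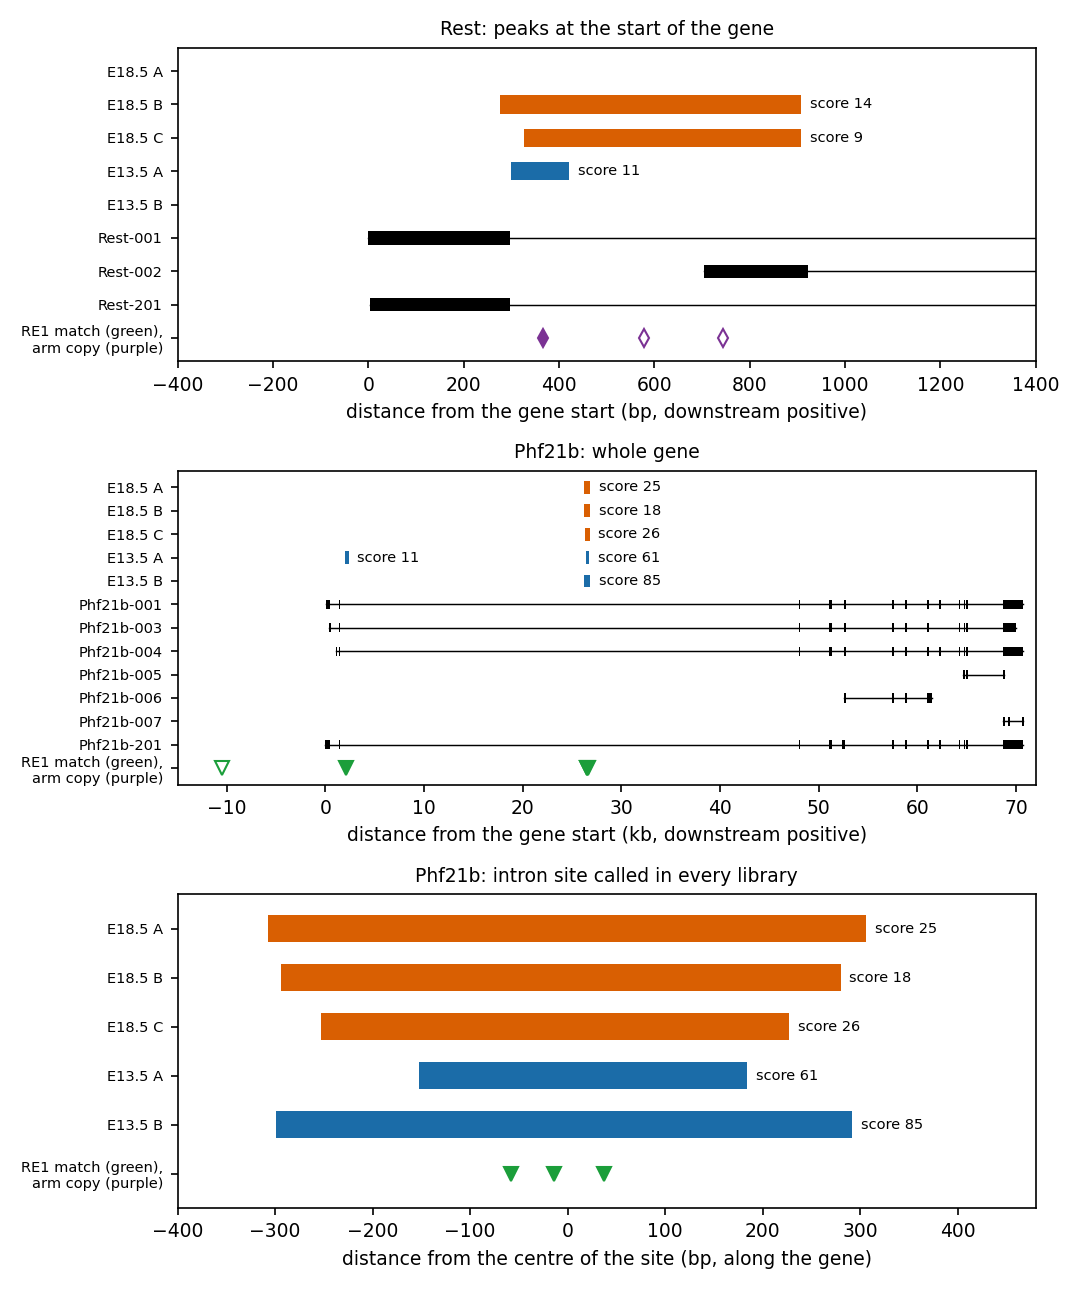
Called REST peaks at Rest (top), along Phf21b (middle) and at the Phf21b intron site (bottom), plotted by distance from the gene start (bp or kb, downstream positive) or from the centre of the site (bp). Coloured bars are peaks of each library with their scores (orange E18.5, blue E13.5), and black boxes are exons of annotated transcripts. Green triangles are RE1 matches (filled when in a peak). Purple diamonds are copies of one arm (filled when exact), drawn at Rest only, although Phf21b has arm copies too. The intron site has bars in all 5 libraries over 3 matches, whereas Rest has bars in 3 libraries over an exact right arm.

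The Rest site was rich in G and C. Over 500 bp around its centre the GC content was 78.2%, against a median of 47.8% over all sites, and 8 of the sites (0.433%) had as much or more. Of those 8, 3 had an RE1 match and 7 were called in at least 2 libraries. The observed number of CpG dinucleotides was 0.932 of that predicted from base composition, against a median of 0.232 over all sites, and 1.19% of sites had this value or more. The part of base composition in the peak calls at Rest was not tested.

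The search for single arms was added after the Rest sequence had been seen, so the exact right arm is a description. An exact right arm (GGACAGCGC, either strand) was present in 8.92% of all site windows and in 7.03% of the 839 sites without an RE1 match. In windows 10 kb downstream the share was 0.216%. Stretches placed at the same distance from the start as the Rest site held it in 0.756% of all 22225 genes, and in promoters of 300 bp the share was 0.535%. A further copy with 1 mismatch (GGACAGCGa) lay within the 2 wide E18.5 peaks, at chr5:77695257-77695265 on the plus strand. The shares above are for exact copies, and copies with 1 mismatch were not counted in other windows. In the whole Rest window the one match to the full element lay 5308 bp downstream of the start, in no peak, with 5 mismatches.

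The CoREST arm of the complex came next. Rcor1 encodes CoREST, the scaffold that holds LSD1 and the deacetylases, and Rcor2 and Rcor3 encode its paralogs. None of them had a peak in its window in any of the 5 libraries. The nearest site to Rcor3 lay 153 kb from its start, that to Rcor1 717 kb away and that to Rcor2 839 kb away, while the median distance of all protein-coding genes to a site of any library was 459 kb. Rcor1 had 1 RE1 match 16568 bp upstream of its start and Rcor2 had 1 match 47332 bp downstream, each with 5 mismatches, and Rcor3 had none.

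Kdm1a, which encodes LSD1, had no peak in its window. Its nearest site lay 304 kb away and was called in 4 libraries. The gene with the nearest start to that site was C1qa, which encodes a complement component. No RE1 match was found in the Kdm1a window.

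The genes of the SIN3 and deacetylase arm were also without peaks. Sin3a encodes the scaffold that binds the amino-terminal domain of REST, and Hdac1 and Hdac2 encode deacetylases shared by both corepressor complexes. Their nearest sites lay 265 kb, 278 kb and 275 kb from the starts of Sin3a, Hdac1 and Hdac2. Sin3a had 1 match 30950 bp downstream of its start and Hdac2 had 1 match 35549 bp upstream, each with 5 mismatches. Hdac1 had none.

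**Figure D2:**
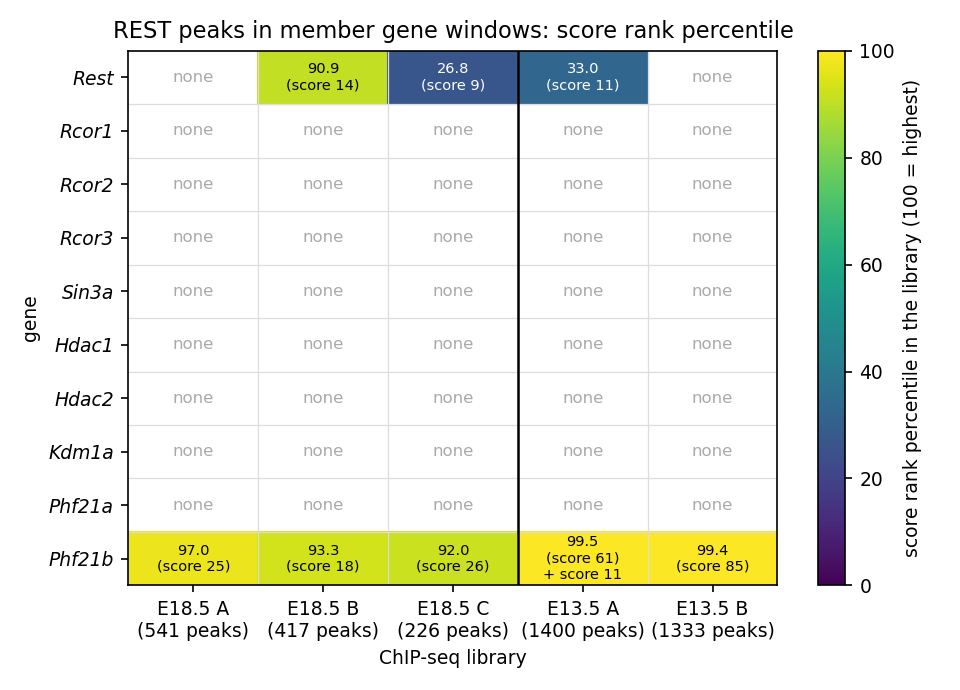
Score rank percentile of the strongest peak in the window of each of the 10 genes (rows) in each library (columns, E18.5 left of E13.5), with 100 as the highest score of a list and the score in brackets. White cells marked none have no called peak. Phf21b is filled in all 5 libraries at ranks from 92.0 to 99.5, Rest in 3 libraries at 26.8 to 90.9, and the 8 other genes in none.

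The pair of PHD finger genes was split. Phf21a encodes BHC80, which binds unmethylated lysine 4 of histone H3 in the LSD1 and CoREST complex, and Phf21b encodes its paralog. Phf21a, the longest of the 10 genes at 271550 bp, had no peak in its window, and its nearest site lay 172 kb from its start, close to Chrm4, which encodes a muscarinic acetylcholine receptor. Phf21b, at 70754 bp, had the strongest site of the set.

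At the Phf21b intron site the E18.5 scores were 25 in A, 18 in B and 26 in C, which placed it 17th of 541, 28th of 417 and 17th of 226 peaks. The E13.5 scores were 61 in A and 85 in B, which placed it 7th of 1400 and 8th of 1333. The site was therefore near the top of each list at both stages. Peak widths there were 614, 575 and 481 bp at E18.5 and 337 and 592 bp at E13.5, and the 3 matches lay under the peak in each library.

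The rank at this site was 97.0, 93.3 and 92.0 at E18.5 and 99.5 and 99.4 at E13.5. How many other sites called in all 5 libraries also ranked higher in both E13.5 lists was not counted. The mean rank was 94.1 ± 2.55 at E18.5 (SD, n = 3) and 99.4 ± 0.0708 at E13.5 (SD, n = 2), a difference of -5.36 (E18.5 minus E13.5). An exact two-sided permutation test gave p = 0.2, the smallest value that 3 against 2 libraries allow. A rank depends on how many weak peaks a list holds, and the E13.5 lists were longer. Within the 226 highest-scoring peaks of each list, the ranks were 92.7, 87.6 and 92.0 at E18.5 and 96.9 and 96.5 at E13.5.

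The second Phf21b site, with an exact left arm, had a score of 11 in E13.5 A, where it was the 888th of 1400 peaks at a rank of 33.0. The 4 other libraries had no peak at the second site. Like the Rest site it was GC-rich, with 70.2% over 500 bp and a CpG ratio of 0.896, and 2.81% of all sites had as much GC or more.

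Sites with as many matches as the Phf21b intron were rare. Of the 1849 sites on assembled chromosomes, 12 had 3 matches that did not overlap, 7 had 4, 29 had 2, 962 had 1 and 839 had none. In windows 10 kb downstream, 3 had 1 match and the other 1846 had none. The 19 sites with 3 or more matches included 14 called in all 5 libraries (73.7%). Among sites with 1 match 4.99% were called in all 5, and among all searched sites 5.95%.

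How well a match fits the element was also scored with the base frequencies learned at each position, in bits, which counts a mismatch less where the element varies. Across the genome the 1090 matches in a peak of any library had a median of 26.1 bits, and the 6327 matches in no peak had a median of 10.9 bits. The 3 intron matches of Phf21b scored 23.1, 29.1 and 27.2 bits in the order shown above. Of matches within 1 bit of these scores, 46.8%, 94.7% and 88.8% lay in a peak. The match near the Phf21b start scored 22.2 bits, a level at which 33.6% of matches lay in a peak.

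The matches of the genes without peaks scored lower, with Phf21a closest to the bound ones. Phf21a had 2, and they are shown because they were the best matches of the set with no peak, with mismatches in lower case.
Phf21a upstream match, chr2:91892011-91892031, plus strand: TTCAGtACtgaGGACAGaGCC
Phf21a intragenic match, chr2:91976322-91976342, plus strand: TgCtGCACCATGGcCAGCtCC
The first lay 41253 bp upstream of the start and scored 21.3 bits, a level at which 22.6% of matches lay in a peak. The second, 43058 bp downstream of the start, had 4 mismatches as did the best Phf21b match, but scored 18.7 bits, a level at which 7.10% lay in a peak. It differed at T2G, A4T, A14C and G19T, and all 3 intron matches of Phf21b had the learned base at positions 4 and 14.

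The remaining matches were weak. Those of Rcor1, Rcor2, Sin3a and Hdac2 scored 8.83, 3.38, 8.38 and 12.6 bits. The match at Rest outside its peaks scored 4.22 bits, and a further Phf21b match, 10492 bp upstream of that gene's start, scored 13.2 bits. None of these 6 lay in a peak.

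**Figure D3:**
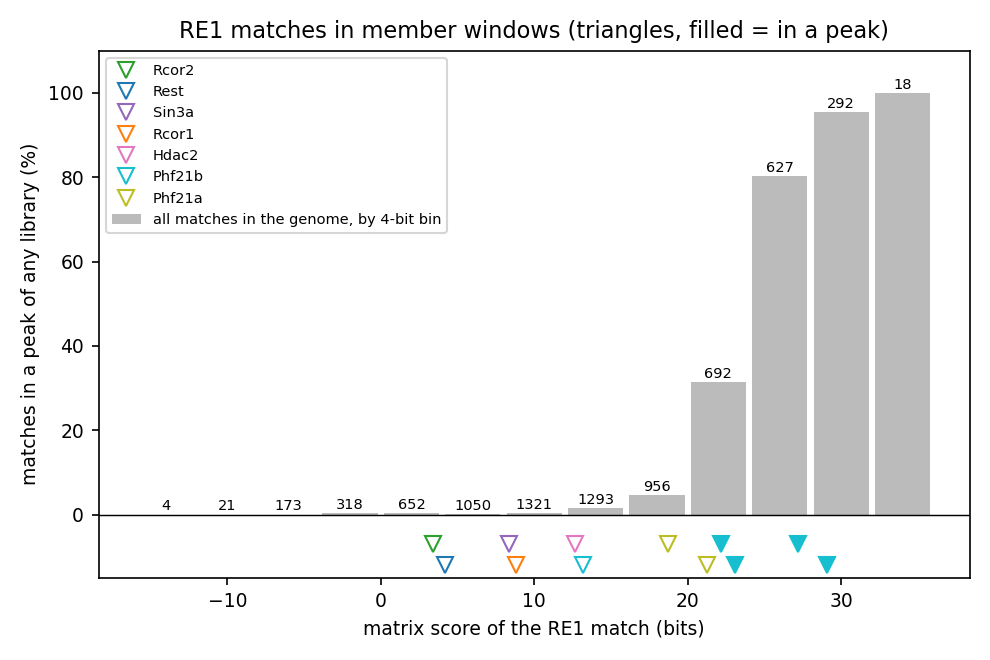
Share of RE1 matches that lie in a peak of any library (y axis, %) by matrix score (x axis, bits, in bins of 4 bits), with the number of matches in the genome above each bar. The score was learned from E13.5 peaks, so the rise of the bars is partly fixed in advance. Triangles below the axis are the matches in the windows of the 10 genes, filled when in a peak, and their height has no meaning. The 4 filled triangles all belong to Phf21b and lie between 22.2 and 29.1 bits, and the open triangles lie at 21.3 bits or less.

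Over the genome 33.9% of gene windows held a match. The share of matches in a peak, partly fixed by learning the element from E13.5 peaks, dropped with each added mismatch. It was 100% of 11 matches with 1 mismatch, 97.8% of 92 with 2, 82.5% of 343 with 3, 35.2% of 1150 with 4 and 5.17% of 5821 with 5. None of the 10 genes had a match with fewer than 4 mismatches. Gene windows with a match of 4 or fewer mismatches were called in 55.2% of cases, and all other windows in 5.12%. Phf21a and Phf21b were in that first class, and Rest was in the other.

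**Figure D4:**
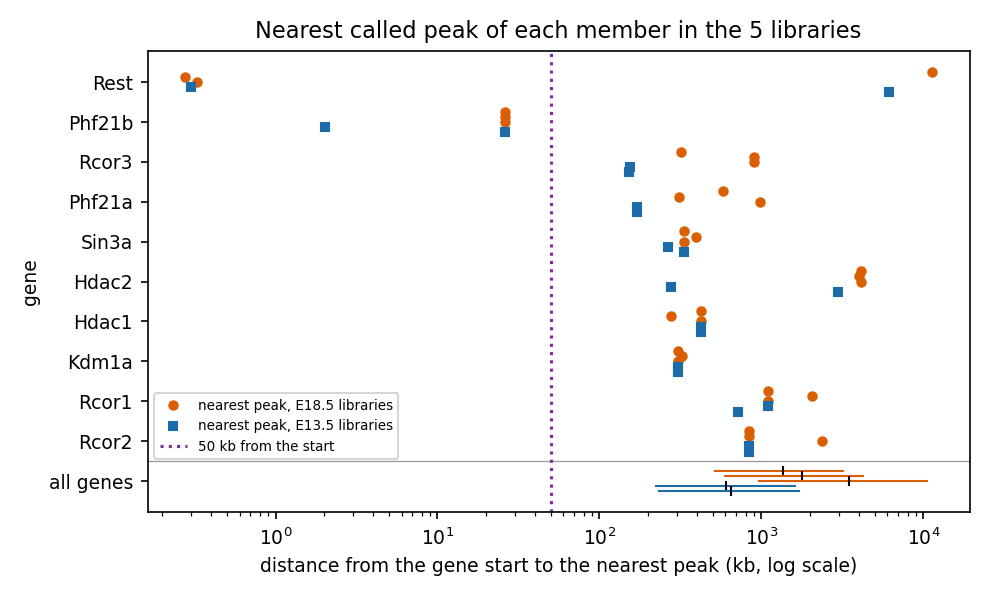
Distance from the start of each of the 10 genes (rows) to the nearest called peak in each library (x axis, kb, log scale), orange circles for E18.5 and blue squares for E13.5. The bottom row gives all protein-coding genes in each library (tick, median; line, quartiles), with medians of 1355, 1773 and 3480.2 kb at E18.5 and 607 and 649.6 kb at E13.5, in the order A, B, C and A, B. Rest has points below 1 kb in 3 libraries and beyond the upper quartile of the same list in the other 2, Phf21b is within 50 kb in all 5, and the 8 other genes lie beyond 50 kb in every library.

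By library, the number of the 10 genes with a peak was 1, 2 and 2 at E18.5 (A, B and C), and 2 and 1 at E13.5 (A and B). The shares of all genes called were 3.28%, 3.06% and 1.98% at E18.5 and 7.86% and 7.60% at E13.5. The mean was 1.67 ± 0.577 genes at E18.5 (SD, n = 3) and 1.5 ± 0.707 genes at E13.5 (SD, n = 2), a difference of 0.167 genes with p = 1 by an exact two-sided permutation test. The difference was smaller than the spread between libraries of a stage.

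Because the lists differed in length, the peaks in the 10 windows were also given as a share of each list. There were 1, 2 and 2 such peaks at E18.5 and 3 and 1 at E13.5. The shares were 0.185% (exact 95% interval 0.00468 to 1.03), 0.480% (0.0581 to 1.72) and 0.885% (0.107 to 3.16) at E18.5, and 0.214% (0.0442 to 0.625) and 0.0750% (0.00190 to 0.417) at E13.5. These Clopper-Pearson intervals cover counting error only. The mean share was 0.516 ± 0.352% at E18.5 (SD, n = 3) and 0.145 ± 0.0985% at E13.5 (SD, n = 2), a difference of 0.372 percentage points with an exact permutation p = 0.4. With so few peaks, neither comparison could separate the stages.

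By the reproducibility rules, 2 of the 10 genes (Rest and Phf21b) had a reproducible site at E18.5, and 1 (Phf21b) had one at E13.5. The shares over all genes were 2.21% and 6.92%. They too are given as a description, since the genes were listed with earlier results known. Narrower windows gave the same 2 genes: with the gene body alone 3.56% of all genes were called, with 20 kb around the start 5.80%, and with 5 kb around the start alone 2.05%. Within 5 kb of the start Phf21b counted through its second site, in E13.5 A only.

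The genes whose pattern of ranks over the 5 libraries was nearest to that of each bound gene were found by Euclidean distance over all protein-coding genes, with 0 for no peak. Nearest to Phf21b, at a distance of 2.69, were B3gnt1, Mrpl11, Npas4, Peli3 and Slc29a2, which share 1 site beside Npas4, a gene for an activity-regulated transcription factor. Its ranks were 98.1, 92.3 and 89.8 at E18.5 and 99.6 and 99.8 at E13.5. Nearest to Rest were H2-T3, Rpp21 and Trim39 at 30.5, which share a peak set, and then 1810006K21Rik and Fads1 at 32.1. All 5 had peaks in the 3 libraries that called Rest and also a low-ranked peak in E13.5 B, where Rest had none.

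Around the 10 genes, 54 further genes of the REST machinery were listed in 6 groups, and 5 had a peak in at least 1 library, close to the 9.83% of all genes called by this rule. Of 9 CoREST and LSD1 partners 2 were called, of 12 SIN3 complex genes 1, of 12 histone methylation and other corepressor genes 1, of 11 genes for REST turnover and localisation 1, and of 7 SWI/SNF genes and 3 CTD phosphatase genes none. Groups this small would hold no called gene or about 1 at the share of all genes, so the counts set none of them apart. Called in at least 2 libraries were 4 of the 54 genes, against 7.02% of all genes. None of the 54 had a reproducible site at E18.5, against 2.21% of all genes, and 3 had one at E13.5, against 6.92%. These counts too were near the shares of all genes. The 54 genes were also listed with earlier results of these data known.

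Hdac3, which encodes another class I deacetylase, had a site 1242 bp upstream of its start in both E13.5 libraries, at ranks of 39.6 and 44.3. That site lay in the neighbouring gene Rell2, whose start was nearer. Ctbp1, which encodes a corepressor that binds short peptide motifs, had a site 445 bp upstream of its start in both E13.5 libraries, at ranks of 49.7 and 34.4, with an exact right arm and no full match. Brms1, a SIN3 complex gene, had a site in both E13.5 libraries at ranks of 77.6 and 89.5, but it lay beside Yif1a, 46583 bp from the Brms1 start. A second site in its window, 48804 bp upstream and in E13.5 B alone at a rank of 39.0, was nearest to Npas4 and held a match with 2 mismatches and 32.0 bits. Usp7, which encodes a deubiquitinase that acts on REST, was called in E18.5 A and in E13.5 A, at 2 different sites with ranks of 26.9 and 15.4. The E18.5 A site lay 24542 bp upstream of the Usp7 start, and the start of 1810013L24Rik was nearer. The E13.5 A site lay inside Usp7, 74354 bp downstream of its start, and the start of Carhsp1 was nearer. The E13.5 A site held a match with 3 mismatches and 26.7 bits, and the E18.5 A site held none.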

How the data were processed

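The authors aligned single-end reads to NCBI36/mm9 with Bowtie2 2.2.5, filtered them by mapping quality and called peaks with MACS2 2.1.0. Their methods describe E13.5 alone, with replicates pooled before calling against input at a stricter false discovery rate. The lists deposited and used here differ from that set: there is 1 per library, for both stages, and they are marked as free of duplicates and called at a rate of 10%. How else they were called is not stated. The deposited score of each peak is a whole number on a scale that was not stated, so it was used as a rank. Overlapping entries of a list were merged (2 to 7 entries lost per library). A gene counted as called when a peak overlapped its body or 50 kb around its start by 1 bp (GENCODE vM1 annotation of NCBIM37, the mm9 assembly). Sites are peaks of all libraries joined where they overlap. RE1 was learned from E13.5 peaks outside the members' windows, and its search was tested on simulated sequence. Analyses used Python 3.11.15, NumPy 2.4.6 and SciPy 1.17.1. Stages were compared over libraries by exact permutation. The labels call the libraries separate samples but give no litter, so p-values measure the spread between these pools.

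The members and wider lists were chosen with earlier results of these data known. Named outside the members were wider-list genes called in at least 2 libraries, genes nearest to a site, and the 5 genes nearest in rank pattern to Phf21b and to Rest, leaving out genes that share their peak. Alternatives varied the window, the peaks counted (scores of 13 or more, or the top 226), merging, overlap, the library left out, and the mismatches and width of the RE1 search. Single-arm searches were added after the data were seen.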

Additional observations from a re-analysis of the deposited data

How the results depend on the processing

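Rest and Phf21b were the members called with the gene body, 20 kb and 5 kb windows. The difference in members per library (0.167) changed sign to -0.333 within 5 kb of the start, and ranged from -0.333 (without E13.5 B) to 0.667 (without E13.5 A) when each library was left out. Without an E13.5 library no reproducible count could be given for that stage. The count of members reproducible at E18.5 (2) was 1 within 5 kb of the start, 1 at scores of 13 or more, and 1 to 2 without each library in turn, since Rest dropped out without E18.5 B or E18.5 C. The count at E13.5 (1) was 0 within 5 kb. Member sites with an RE1 match (2 of 3) numbered 1 at no more than 4 mismatches and 0 at no more than 3. An exact copy of either arm, an alternative chosen after seeing the data, was also found at 2 sites, but these were the Rest site and the Phf21b site near the start. The libraries share letters only, with different embryos at each stage, so the letters do not pair them. With letters A and B as a replicate block the differences were 0 members and 0.188 percentage points (exact permutation p = 1 each). The difference in list share (0.372 percentage points) ran from 0.188 to 0.538 without each library in turn and was 2.27 at scores of 13 or more (exact permutation p = 0.2). Depth is unknown, and neither the 3 against 2 libraries nor lists of unequal length show whether weak binding occurred at the 8 other members.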
